A study of Mus musculus with 9 samples.

Results

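Tubulin isotypes were followed while mouse megakaryocytes, the platelet-forming cells of the marrow, matured in culture. The members were the probe sets that the platform annotation pairs with exactly 1 of 10 tubulin genes: Tubb1, Tubb2a, Tubb2b, Tubb3, Tubb4b, Tubb5, Tubb6, Tuba1a, Tuba4a and Tubg1. There were 18 such probe sets among the 22690 in the table, and they covered 9 of the 10 genes, among 12393 genes with a probe set of their own. No probe set was paired with Tubb1, the beta-tubulin of megakaryocytes and platelets, so the isotype best known from this lineage was not analysed here. Another 7 probe sets were paired with several genes, at least 1 of them a tubulin, and were left out.

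The stages, on 9 single-colour Affymetrix MOE430A arrays in all, were MKP, MK3 and MK4 with 2 arrays each and MK6 with 3. All came from mouse bone marrow or fetal liver cells grown with thrombopoietin, the cytokine of this lineage, and sorted by flow cytometry for high surface CD41 and by forward scatter, a measure of cell size. The labels give no strain, genotype or animal age, do not tell which tissue a given array came from, and give no culture day for MKP, while the numbers in the other names match the culture days 3, 4 and 6. In the titles the arrays of a stage are marked only as replicates, with no word on separate cultures, so the p-values below measure the spread between these arrays, which may be technical. MK6 replicate 1 stands here for the MK6 array without a number in its title, and MK6 replicates 2 and 3 for those titled replicate1 and replicate2.

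Microtubules are hollow polymers of alpha- and beta-tubulin dimers, and each chain is encoded by several genes whose products, the isotypes, differ mainly in their C-terminal tails. Gamma-tubulin is not part of the polymer wall but starts its growth at centrosomes and other sites. Megakaryocytes use microtubules first in the spindles of their endomitotic cycles, in which the genome is doubled without cell division, and later in proplatelets, the long extensions that microtubule bundles build and from which platelets are released.

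Signals are MAS5 intensities after each array was multiplied to a common trimmed mean of 161, and differences are on the scale log2(signal + 15.2), which understates the change of dim probe sets. A probe set counted as measured if its signal was above 46.7 on at least 2 arrays, and 17 of the 18 passed. The exception was the Tubb2a probe set 1427838_at, whose signal was 3.08 to 34.1 on the 9 arrays. Calls were made in limma over 14516 probe sets, at a p below 0.05 after Benjamini-Hochberg adjustment. The letter x before the ending of a probe set's name marks a design in which some probes match other transcripts, and s one in which all do. The letter a marks probes shared by transcripts of 1 gene. Levels are compared only within a probe set, since probe sets differ in how brightly they report the same amount of RNA.

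The MK6 arrays did not match each other. Their 3' to 5' beta-actin ratio, which increases as RNA fragments, was 1.49, 1.33 and 3.21 on replicates 1, 2 and 3, against 0.957 to 1.09 on the other 6 arrays, and before scaling the trimmed means of replicates 1 and 3 were 103 and 102, against 123 to 221 on the others. Itga2b, the CD41 chain used for sorting, had signals of 3394, 3678 and 2856 on the MK6 arrays and 1301 and 979 on the MKP arrays. Summed over 11 megakaryocyte markers, none of them below 46.7 on all arrays, the signal was 9788 to 10312 in MKP, 10250 and 23020 on MK3 replicates 1 and 2, 18633 to 22931 in MK4 and 17158 to 20281 in MK6. MK3 replicate 1 thus lay near MKP in these markers and MK3 replicate 2 near MK4. In MK6 against MKP the platelet chemokine Pf4, Itga2b and Vwf, von Willebrand factor, were called higher and 8 of the 11 differences were positive. The other 3 were those of Itgb3, the partner chain of CD41 (-2.01, adjusted p = 0.0518), Ppbp (-0.66) and Clec1b (-0.55), and in MK6 against MK4 only 3 of the 11 were positive (median -0.66, 0 called). In bulk samples a change in the share of a cell type and a change in RNA per cell cannot be told apart.

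In MK6 against MKP, 2 member probe sets were called higher, 1 each of Tubb2a and Tuba4a, and 1 was called lower, of Tubb5. The Tuba4a probe set had both MKP signals below the filter level and passed the filter through the later stages alone, so its call is not read against the rest. Over all probe sets 2.64% were called higher and 4.27% lower in that comparison. The median difference was -0.02 over the 17 members tested and 0.08 over all probe sets. The MK6 and MKP arrays did not overlap for 11 of the 17 members (6 higher and 5 lower in MK6), against 43.8% of all probe sets. The 6 include Tuba4a 1417375_at, Tubb2b 1452679_at and Tubb4b 1439416_x_at, whose MKP signals all lay below the filter level. They passed through later arrays alone, so the count is not read against that share. Among the 9 genes, Tubb2a and Tubb2b lay higher in all 3 later stages than in MKP, Tubb5 and the brightest probe set of Tubb4b lay lowest in MK6, and the differences of Tuba4a (on its brightest probe set), Tubb6 and Tubg1 were -0.02, -0.15 and -0.17. All 3 calls ended without MKP replicate 1, without MKP replicate 2, without MK6 replicate 3, without MK6 replicates 1 and 3 together, and in a fit with that beta-actin ratio as a covariate, where 5, 18, 307, 93 and 0 of all probe sets were called against 1003 with all arrays and no covariate.

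**Figure D1:**
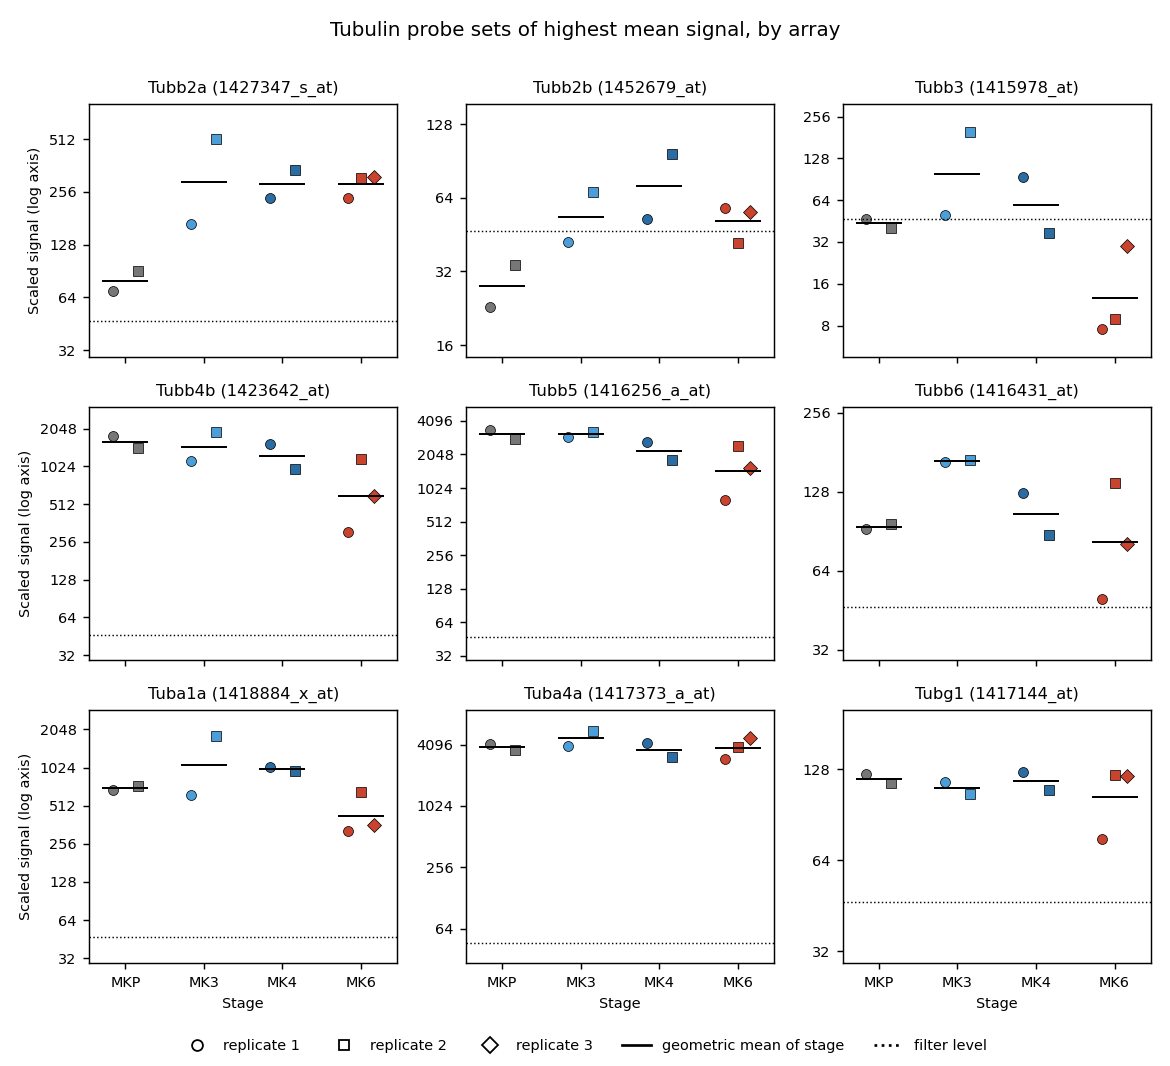
Scaled signal (log axis) of the brightest probe set of each of 9 tubulin genes on each array, by stage. Symbols mark replicates, bars the geometric mean of a stage and the dotted line the filter level of 46.7. The MKP arrays lie below all later arrays for Tubb2a and Tubb2b, and the MK6 arrays lie below both MKP arrays for Tubb3, Tubb4b, Tubb5 and Tuba1a.

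Tubb2a, a beta-tubulin isotype abundant in brain and expressed in many other tissues, rose. Probe set 1427347_s_at had signals of 69.3 and 90.8 on the MKP arrays, 167 and 511 on the MK3 arrays, 237 and 343 on the MK4 arrays, and 238, 306 and 313 on the MK6 arrays. All 7 later arrays lay above both MKP arrays, and the 3 later stages overlapped one another. Its mean log2 level was 8.22 ± 0.21 in MK6 (SD, n = 3) and 6.56 ± 0.23 in MKP (SD, n = 2). MK6 exceeded MKP by 1.66 ± 0.39 (SE), a fold of 3.16 on the scale used (adjusted p = 0.032 in limma). The difference was already 1.71 ± 0.43 for MK3 minus MKP, where it did not pass the threshold (adjusted p = 0.159). From there on, MK4 minus MK3 was -0.04 and MK6 minus MK4 was -0.01 (adjusted p = 0.999 and 0.995). The lower of its MK3 arrays, replicate 1, was also the one with megakaryocyte markers near the MKP level. Macrophage markers also rose from MKP to MK3. Of 12 such genes 11 had positive MK3 minus MKP differences (median 1.93, 1 called), and in MK6 against MKP 3 were called higher (Cd68, Ctss and Mmp12) and 1 lower (Itgam). Their summed signal was 13014 and 10495 in MKP and 32006 and 17207 on MK3 replicates 1 and 2. It was 13889 and 20150 in MK4, and 31587, 13762 and 15488 on MK6 replicates 1, 2 and 3. Replicate 1 of MKP, of MK3 and of MK6 was the highest of its stage here and the lowest for Tubb2a. The MK4 arrays stood in the same order for both. The part of cell composition in the Tubb2a difference was not tested.

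Over 21 alternatives the Tubb2a difference ran from 1.40 to 1.82 and was called in 14. Beside the 5 alternatives above, where the adjusted p was 0.0925 to 0.441, the call ended without MK6 replicates 2 and 3 together (1.42, adjusted p = 0.0953) and when arrays were scaled to the same median (1.54, adjusted p = 0.0794).

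Tubb2b is so close to Tubb2a in sequence that probes for either may report both, and 1427347_s_at is of the shared design, so the 2 genes' parts in its signal are uncertain. Tubb2b, whose loss is known to disturb cortical layering in the brain, had on probe set 1452679_at signals of 22.8 and 33.9 in MKP, 42.4 and 67.4 in MK3, 52.2 and 97.1 in MK4, and 58.1, 41.7 and 55.8 in MK6. Again every later array lay above both MKP arrays, while the later stages overlapped. The difference was 0.63 ± 0.35 for MK6 minus MKP and that of MK4 minus MKP was 1.01 ± 0.38, neither past the threshold (adjusted p = 0.281 and 0.686). Both MKP arrays lay below the filter level, so the size of the difference depends on the pseudocount. Over the 9 arrays the log2 levels of the Tubb2a and Tubb2b probe sets had a Pearson's r of 0.83, the highest of Tubb2a with any other member; the arrays share the scaling and the 2 probe sets may share transcripts.

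Tubb5, the beta-tubulin of most dividing cells, fell. On probe set 1455719_at its signals were 1084 and 980 in MKP, 870 and 852 in MK3, 710 and 696 in MK4, and 274, 533 and 329 in MK6. No 2 stages overlapped on this probe set, and each stage lay below the one before it. Its mean log2 level was 8.57 ± 0.48 in MK6 (SD, n = 3) and 10.03 ± 0.10 in MKP (SD, n = 2). For MK6 minus MKP the difference was -1.46 ± 0.28, a fold of 0.363 (adjusted p = 0.0153), and the MK6 minus MK3 difference was -1.21 ± 0.28 (adjusted p = 0.0486). In that last comparison it was the only member called lower and none was called higher, with 1.73% and 0.579% of all probe sets called lower and higher. It was also the only member called for a difference of any kind among the 4 stages (F test, adjusted p = 0.0444, 2.59% of all probe sets called). Neighbouring stages in the order did not differ past the threshold, at -0.26 for MK3 minus MKP, -0.29 for MK4 minus MK3 and -0.92 for MK6 minus MK4 (adjusted p = 0.864, 0.999 and 0.217).

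The brighter Tubb5 probe set, 1416256_a_at, had signals of 3430 and 2793 in MKP, 2934 and 3267 in MK3, 2668 and 1811 in MK4, and 805, 2463 and 1543 in MK6. All 3 MK6 arrays lay below both MKP arrays, but MK6 replicate 2 lay within the range of MK4. Its MK6 minus MKP difference was -1.08 ± 0.40 and was not called (adjusted p = 0.128). Its size rested on single MK6 arrays: it was -1.46 and passed without replicate 2 (adjusted p = 0.0315), -0.66 without replicate 1 (adjusted p = 0.187) and -0.33 without replicates 1 and 3 together (adjusted p = 0.668). On the dimmer probe set the difference ran from -1.86 to -0.93 over 20 alternatives and was called in 15, and in the 5 that ended the call the adjusted p was 0.0511 to 0.34. In MK6 against MK3 any member was called only with 3 times the pseudocount (1 probe set), without MK6 replicate 2 (5 probe sets) and without MK6 replicates 2 and 3 together (4 probe sets, with a single MK6 array). The difference of 1455719_at there ran from -1.60 to -0.68 and was called in 3 of 20 alternatives.

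Markers of proliferating cells also lay lower in MK6 than in MKP. Summed over 13 such genes, the signal was 1063, 6113 and 4083 on MK6 replicates 1, 2 and 3, against 7726 and 7012 on the MKP arrays. The MK6 arrays thus stood in the same order as for the brighter Tubb5 probe set. In MK3 the sums were 5491 and 5908 and in MK4 6030 and 4825. They were thus already lower in MK3 than in MKP, where the brighter Tubb5 probe set differed by 0.0005 and the dimmer by -0.26. All 13 differences were negative in MK6 against MKP with a median of -1.08, and 0 of the 13 were called. Neutrophil markers were also lower in MK6 than in MKP, with 7 of 12 genes called lower (4.27% of all probe sets). Their summed signals were 12836, 29272 and 6719 on MK6 replicates 1, 2 and 3, against 48864 and 39782 on the MKP arrays. Replicate 3 was the lowest MK6 array for them, and replicate 1 for both Tubb5 probe sets. The part of proliferating cells, of neutrophils and of RNA quality in the Tubb5 difference was not tested.

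Across the 9 arrays the genes whose log2 levels were most like those of Tubb5 (1416256_a_at) were Dynll1, a dynein light chain, with a Pearson's r of 0.98, the mitotic kinase Aurka (0.97), Rpn2, a subunit of the enzyme that glycosylates new proteins (0.97), Tubb4b (0.97), and Pcna, the sliding clamp of DNA replication (0.97), over arrays that share 1 scaling and differ in RNA quality. Their MK6 minus MKP differences were -0.61, -0.94, -0.83, -1.40 and -0.74, none of which was called (adjusted p = 0.098 to 0.181).

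Tubb4b, another widely expressed beta-tubulin and a main component of cilia, was read by 6 probe sets that did not tell the same story. The brightest, 1423642_at, had signals of 1787 and 1435 in MKP, 1137 and 1915 in MK3, 1547 and 983 in MK4, and 307, 1168 and 592 in MK6. The MK6 arrays all lay below the MKP arrays and stood in the same order as for Tubb5, and MK6 replicate 2 overlapped MK3 and MK4. The MK6 minus MKP difference was -1.40 ± 0.47 and missed the threshold (adjusted p = 0.098). It was -1.87 and passed without MK6 replicate 2 (adjusted p = 0.0189), but was -0.93 without replicate 1 (adjusted p = 0.152) and -0.45 without replicates 1 and 3 together (adjusted p = 0.644). On the other 5 probe sets the mean was higher in MK6 than in MKP, by 0.22 to 1.08. The arrays overlapped on 1438622_x_at and 1456031_at, and none was called in limma (adjusted p = 0.197 to 0.674). Of the 5, 1456031_at passed the filter through MK6 replicates 1 and 3 alone, with MKP signals of 9.27 and 26.3. For 1439416_x_at, with MKP signals of 23.6 and 14.1, MK3 replicate 1 and MK6 replicate 1 alone passed. Their differences, 1.08 and 0.99, are not read against the brightest probe set. Without MK6 replicate 1 the difference on 1438622_x_at was -0.01. These 5 were dim, with a highest signal of 334 on any array, and 4 of them were of the x design. On 1456470_x_at, the brightest of the 5, the signals were 334, 171 and 166 on the MK6 arrays against 153 and 165 on the MKP arrays, so MK6 replicate 1 alone stood apart there.

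The gene starts of Tubb5, Tubb4b and Tubb2a are shown, a choice made from these same data. The brightest probe sets of the first 2 had like patterns over the arrays, and that of Tubb2a an opposite difference between MK6 and MKP. The other probe sets of Tubb4b had means that were higher in MK6 than in MKP. A link between these sequences and the signals was not tested. Each window runs from 250 bases before to 50 bases after the annotated start, 5′ to 3′ on the gene's strand, from RefSeq on build GRCm38.p6, in which 7 of the 10 genes had a window. Capitals mark CCAAT and TATAA, searched on both strands.
Tubb5, chr17:35838252-35838551, minus strand: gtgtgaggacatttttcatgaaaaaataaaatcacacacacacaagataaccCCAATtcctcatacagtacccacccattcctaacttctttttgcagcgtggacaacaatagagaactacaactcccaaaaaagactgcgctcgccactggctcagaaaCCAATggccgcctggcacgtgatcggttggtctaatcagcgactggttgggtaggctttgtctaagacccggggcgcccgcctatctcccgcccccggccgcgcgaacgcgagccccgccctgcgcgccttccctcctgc
Tubb4b, chr2:25224653-25224952, minus strand: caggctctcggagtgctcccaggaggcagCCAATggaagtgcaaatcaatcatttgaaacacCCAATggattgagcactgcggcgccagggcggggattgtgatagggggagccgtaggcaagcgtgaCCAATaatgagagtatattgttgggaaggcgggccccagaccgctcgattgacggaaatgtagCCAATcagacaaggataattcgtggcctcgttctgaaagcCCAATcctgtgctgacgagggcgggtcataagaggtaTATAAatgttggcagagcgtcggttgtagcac
Tubb2a, chr13:34077959-34078258, minus strand: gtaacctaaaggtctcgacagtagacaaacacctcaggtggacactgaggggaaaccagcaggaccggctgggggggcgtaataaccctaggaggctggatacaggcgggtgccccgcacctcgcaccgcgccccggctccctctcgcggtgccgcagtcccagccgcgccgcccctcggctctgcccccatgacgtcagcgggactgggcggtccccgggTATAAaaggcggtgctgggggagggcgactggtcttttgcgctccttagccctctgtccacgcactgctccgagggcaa

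The CCAAT pentamer, the core of the box that the factor NF-Y binds, occurred 2 times in the Tubb5 window (its first base at -198 and -90 from the start) and 5 times in that of Tubb4b (-221, -188, -122, -59 and -19). It occurred 0 times in the Tubb2a window. Of the windows not shown, those of Tubb1, Tubb3 and Tuba1a held it and that of Tuba4a did not. Of all 32851 windows, 37.4% held it at least once on either strand, 11.7% at least 2 times and 0.271% at least 5 times. TATAA, the core of the TATA box, lay at -29 in the Tubb2a window and at 19 in that of Tubb4b, did not occur in that of Tubb5, and was found in 24.9% of all windows. The GATA motif AGATAA occurred once in the Tubb5 window (at -206; 11.2% of all windows) and in neither of the others, and TGANTCA, the core of sites bound by NF-E2 and AP-1, in none of the 3 (7.81% of all windows). These are matches of letters only.

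Tubb3, known as the neuronal beta-tubulin, and Tubb6, a minor and widely expressed isotype, were dimmer. Tubb3 (1415978_at) had signals of 46.6 and 40.5 in MKP, 49.9 and 198 in MK3, 94.3 and 36.9 in MK4, and 7.58, 8.97 and 29.8 in MK6. It passed the filter through MK3 and MK4 only, and all 3 MK6 arrays lay below every other array and below the filter level, so no fold is given. The MK6 minus MKP difference was -1.01 ± 0.54 (adjusted p = 0.262) and the MK6 minus MK3 difference -2.02 ± 0.54 (adjusted p = 0.0814). Of 10 neuron markers 5 were below 46.7 on all arrays, and their summed signal was 303 to 745 in MK6, against 227 to 290 in MKP. Tubb6 (1416431_at) had signals of 92.0 and 96.8 in MKP, 167 and 169 in MK3, 126 and 87.8 in MK4, and 49.96, 138 and 80.7 in MK6. It lay highest in MK3, clear of all other arrays, with a difference of 0.74 ± 0.37 for MK3 minus MKP (adjusted p = 0.582). Summed over 7 hepatocyte markers, the signal was also highest in MK3 (3143 to 4041, against 126 to 1052 on the other arrays), and their part in the Tubb6 difference was not tested. In MK6 it overlapped MKP at -0.15 ± 0.34 (adjusted p = 0.805).

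The alpha-tubulins were Tuba1a, an isotype of developing neurons and other cells, and Tuba4a, the alpha-tubulin best known from platelets, whose mutation in mice is reported to alter their microtubules. Tuba1a (1418884_x_at) had signals of 686 and 731 in MKP, 626 and 1825 in MK3, 1031 and 965 in MK4, and 322, 658 and 358 in MK6. MK4 lay above MKP and MK6 below it without overlap, while the MK3 arrays enclosed both MKP and MK4. The differences were -0.72 ± 0.42 for MK6 minus MKP (adjusted p = 0.3) and -1.21 ± 0.42 for MK6 minus MK4 (adjusted p = 0.288). Tuba1a, Tuba1b and Tuba1c are close copies, and its probe set is of the x design, so the signal may include the other copies.

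Tuba4a was bright on 2 of its 3 probe sets, where no difference was called. On 1417373_a_at the signals were 4169 and 3620 in MKP, 3980 and 5615 in MK3, 4208 and 3117 in MK4, and 2979, 3913 and 4774 in MK6. All stages overlapped MK6, and the MK6 minus MKP difference was -0.02 ± 0.30 (adjusted p = 0.969). On 1417374_at it was -0.45 ± 0.38 (adjusted p = 0.477), with signals of 830, 1598 and 1431 in MK6 against 1909 and 1513 in MKP. Its signals were 1592 and 3571 in MK3 and 2352 and 1856 in MK4. All MK6 arrays lay below MK4 there, at -0.75 ± 0.38 for MK6 minus MK4 (adjusted p = 0.484 in limma). MK6 minus MK3 was -0.94 ± 0.38 with overlap (adjusted p = 0.228 in limma). The dim 1417375_at gave the opposite, with signals of 106, 54.2 and 69.6 in MK6 against 18.5 and 12.2 in MKP, and of 44.2 to 60.2 in MK3 and MK4. Its difference was 1.56 ± 0.34 and was called (adjusted p = 0.0245). Both MKP signals lay below the filter level and near the pseudocount, so the probe set passed through the later stages alone and no fold is given. Over 19 alternatives the difference ran from 0.98 to 1.99 and was called in 13. The call ended, beside the 5 alternatives named above (1.21 to 1.70, adjusted p = 0.0682 to 0.353), in a fit to the MK6 and MKP arrays alone (1.56, adjusted p = 0.0626).

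Tubg1, the main gamma-tubulin, lay at 123 and 115 in MKP, 116 and 106 in MK3, 126 and 110 in MK4, and 75.1, 122 and 121 in MK6 (1417144_at). MK6 replicate 1 was the lowest array, and the other 8 lay between 106 and 126. Its MK6 minus MKP difference was -0.17 ± 0.26 (adjusted p = 0.704).

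In the steps between stages 0 of the 17 member probe sets passed in limma for MK3 minus MKP, MK4 minus MK3 and MK6 minus MK4, with 0.0758%, 0.0138% and 0.0276% of all probe sets called. At an unadjusted p below 0.05 the members numbered 2, 0 and 3 in these steps, where 9.65%, 3.46% and 11.6% of all probe sets lay below it. In MK4 against MKP 0 members passed, as did 0% of all probe sets, with 3 members and 6.34% of all probe sets at an unadjusted p below 0.05. These comparisons share arrays: MK3 and MK4 each enter 2 of the steps, and MKP and MK6 also enter the whole course.

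**Figure D2:**
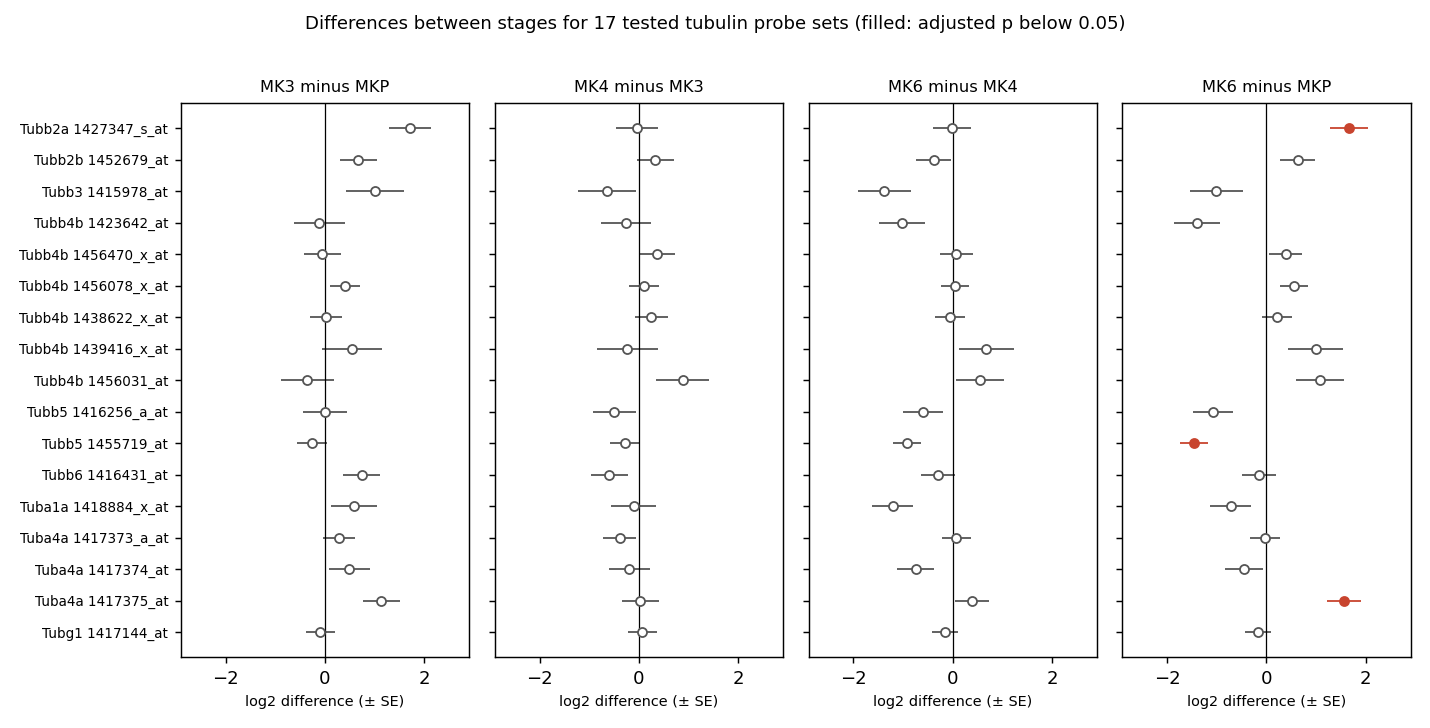
Log2 differences (points, ± SE) of the 17 tested tubulin probe sets for the 3 successive steps and for MK6 minus MKP. Filled points passed an adjusted p below 0.05, which were 1 probe set each of Tubb2a, Tubb5 and Tuba4a, all for MK6 minus MKP.

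Whether isotypes changed unequally was tested on ratios of 2 tubulins on the same array, where the scaling of the array cancels but for the pseudocount. Each gene was taken by its brightest probe set, and the ratio was compared among the 4 stages by an exact permutation test of the F statistic. The test ran over all 7560 assignments of the arrays, and its smallest possible p is 0.000794. Its p-values are for any difference among the 4 stages, not for MK6 minus MKP. Of the 5 ratios planned, the 2 with Tubb1 could not be formed. The log2 ratio of Tubb2a to Tubb5 averaged -5.04 in MKP, -3.33 in MK3, -2.88 in MK4 and -2.30 in MK6. All 3 MK6 values, -1.70, -2.95 and -2.25, lay above the MKP values of -5.35 and -4.73, and the MK6 minus MKP difference was 2.74. Among the 4 stages the exact permutation p was 0.0524 (adjusted p = 0.0786 over the 3 ratios). The ratio of Tubb6 to Tubb5 was 0.93 higher in MK6 than in MKP, again without overlap (exact permutation p = 0.0222, adjusted p = 0.0667). That of Tuba4a to Tuba1a was 0.70 higher in MK6 but overlapped MKP (exact permutation p = 0.155, adjusted p = 0.155), with 0.42 without MK6 replicate 3 and 0.11 without MK6 replicates 1 and 3 together. None of the 3 passed after adjustment. Without MK3 replicate 2 the MK6 minus MKP differences of Tubb2a and of Tubb6 to Tubb5 were 2.74 and 0.93. That alternative leaves a single MK3 array, which adds no spread within its stage, so its p-values are not read.

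**Figure D3:**
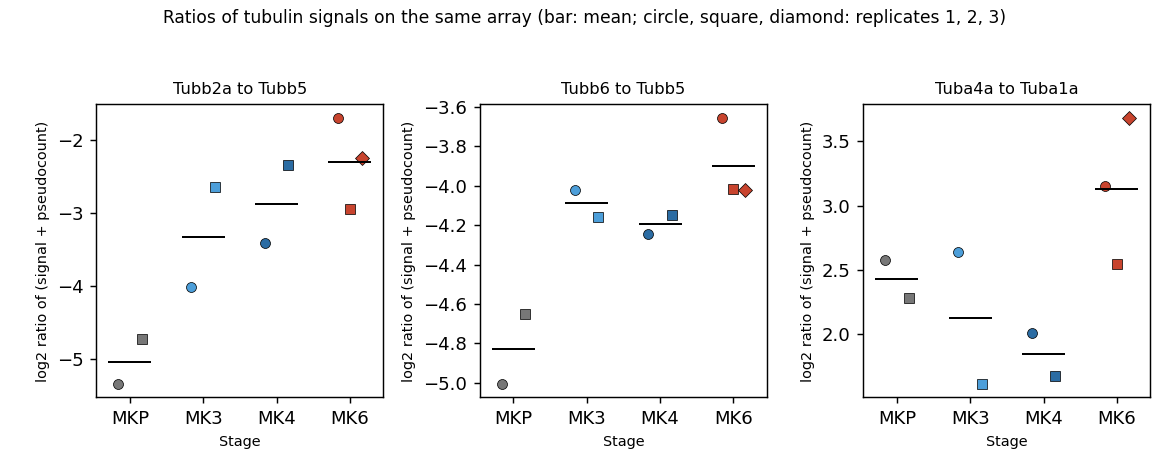
Log2 ratio of (signal + 15.2) of 2 tubulins on the same array, by stage, with symbols for replicates 1 to 3 and bars for stage means. For Tubb2a to Tubb5 the stage means lie at -5.04, -3.33, -2.88 and -2.30 in MKP, MK3, MK4 and MK6.

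Genes that fold, modify, nucleate or take apart tubulin were read from lists, each gene by its brightest probe set. Of 4 measured members of the other tubulins 0 were called in MK6 against MKP, with a median difference of 0.47 (0.08 over all probe sets). They included Tubb4a (0.61), Tubd1 (0.53) and Tuba3b (0.41). Both MKP signals of Tuba3b, 38.2 and 27.7, lay below the filter level. It passed through later arrays alone, so the median of this list is not read against that of all probe sets. Of 9 folding cofactors, which assemble the alpha and beta chains into a dimer, 1 rose and 0 fell, and the median was 0.27. Over all probe sets 2.64% were called higher and 4.27% lower. The one that rose was Tbcel, a relative of cofactor E known to destabilise tubulin. Its signals were 298, 321 and 280 in MK6 and 113 and 115 in MKP, with no overlap, and the difference was 1.29 ± 0.22 (adjusted p = 0.0112). Its other probe set gave 0.80. The Tbcel call ended in the fit with the beta-actin covariate, where 0 of all probe sets were called. Whether it held in the other alternatives was not examined. Tbca, which holds beta-tubulin, lay at 0.76 ± 0.25 (adjusted p = 0.0885) on its brightest probe set, and 1 of its 3 others was called.

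Of 15 genes of the CCT chaperonin and prefoldin, which fold new tubulin and actin, and of the phosducin-like proteins Pdcl and Pdcl3, 0 were called in MK6 against MKP and the median was -0.21, with Cct6a at -0.79, Pfdn6 at -0.58 and Pfdn2 at -0.50. For Cct3, at 0.34 on its brightest probe set, 1 of 4 other probe sets was called, and these ran from -1.15 to 0.37. Of 15 genes of the gamma-tubulin ring and of microtubule branching 0 were called, and the median was -0.31. The lowest were the augmin subunits Haus5 (-1.09), Haus1 (-1.03) and Haus4 (-0.76). Of 11 tubulin-modifying enzymes 0 were called, with a median of 0.18. Those farthest from 0 were Vash2, a tubulin detyrosinase, at 0.99, the glycylase Ttll3 at 0.90 and the deglutamylase Agbl5 at 0.82. Another Agbl5 probe set gave -0.03. The MKP signals of Vash2 (23.4 and 26.7) and Ttll3 (44.2 and 25.3) lay below the filter level. Both genes passed through later arrays alone, so their differences and this median are not read against all probe sets. Of 15 microtubule-associated and plus-end proteins 0 were called, with a median of -0.02. Dst (0.93), Camsap1 (0.72) and Slain2 (0.51) lay farthest from 0. Dst too had both MKP signals (29.9 and 18.2) below the filter level and passed through later arrays alone.

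Of 8 measured genes that sever or destabilise microtubules 1 fell and 0 rose, with a median of 0.14 (4.27% and 2.64% of all probe sets were called lower and higher). The one that fell was Stmn1, stathmin, which sequesters tubulin dimers and is abundant in dividing cells. Its signals (1415849_s_at) were 2824 and 2336 in MKP, 1686 and 1322 in MK3, 1249 and 893 in MK4, and 529, 1423 and 1127 in MK6. Both MKP arrays lay above all later arrays, and the MK6 arrays stood in the same order as for Tubb5. The MK6 minus MKP difference was -1.42 ± 0.38 (adjusted p = 0.0473). This call too ended in the fit with the beta-actin covariate, where 0 of all probe sets were called, and was not examined in the other alternatives. Fignl1, a relative of the severing enzymes, lay at -1.50 ± 0.50 (adjusted p = 0.0971 in limma), and at 0.76 on its other probe set. The neuronal stathmin Stmn2 lay at 1.06 ± 0.60 (adjusted p = 0.292 in limma). Its MKP signals, 41.1 and 7.55, lay below the filter level and it passed through later arrays alone. Its difference and the median of this list are therefore not read against all probe sets. No gene of these 7 lists was called in any of the 3 steps between stages.

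**Figure D4:**
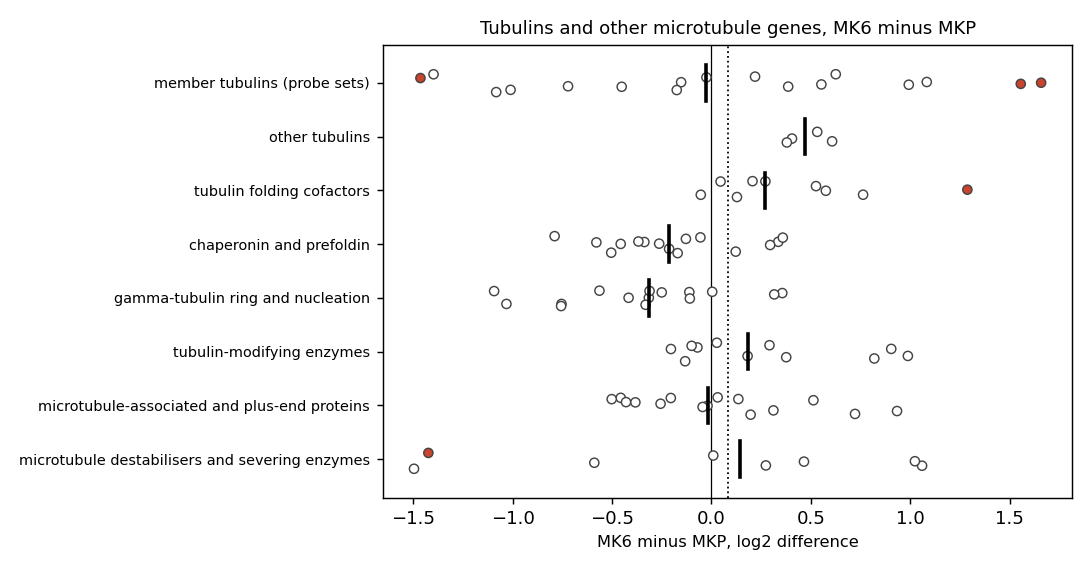
MK6 minus MKP log2 differences of the 17 member probe sets and of the measured genes of 7 lists of microtubule genes (points), with the median of each row (bar) and of all tested probe sets (dotted line, 0.08). Filled points passed an adjusted p below 0.05, among them Tbcel at 1.29 and Stmn1 at -1.42. Some points, among them Tuba3b, Vash2, Ttll3, Dst and Stmn2, had both MKP signals below the filter level.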

How the data were processed

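The authors' deposited values are probe set intensities on a linear scale, and the submitters' processing notes name MAS5. Its version and settings are not stated in the labels or files. Of 22690 probe sets, 64 were controls, 20380 had 1 gene in the platform annotation, 691 several and 1555 none. Symbols were updated through a RefSeq gene table (20352 found). As the trimmed means (2% off each end) ran from 102 to 221, each array was multiplied to their mean, 161. The pseudocount, 15.2, was the 20th percentile of scaled values, and the filter level, 46.7, the 40th. Limma 3.58.1 in R 4.3.3 fitted a mean per stage to all 9 arrays (lmFit, eBayes with a trend on intensity, leaving 5 residual degrees of freedom). With 2 or 3 arrays a stage, precision is limited by their number. The fit was tested on simulated data.

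All probe sets of the members were reported. From each list the 3 measured genes of largest absolute MK6 minus MKP difference, and all called ones up to 6, were named, with the 5 genes most correlated with Tubb5. The same rule for Tubb1 had no probe set to use. Members, lists, tests and alternatives were chosen with earlier results of these data known. Alternatives were other pseudocounts, filters, scalings, variance models and covariates, 1 probe set a gene, fits to 2 stages, and arrays left out. The alternative listed without MK6 replicates 2 and 3 was meant for the arrays with the lowest trimmed means, which are MK6 replicates 1 and 3 in the numbering used here. It was run as listed, and the one without replicates 1 and 3 was added after seeing the data.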

Additional observations from a re-analysis of the deposited data

How the results depend on the processing

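The 3 called MK6 minus MKP differences kept their sign in every alternative in which they were tested, and the cause of each lost or gained call was not tested. Of the 3 member probe sets called in MK6 against MKP, 1 was called with 1 probe set a gene, where only each gene's brightest was fitted, and 0 with the beta-actin covariate or without MK6 replicates 1 and 3 together. Leaving out 1 array gave 0 (without MKP replicate 1, MKP replicate 2 or MK6 replicate 3) to 5 (without MK6 replicate 2). Leaving out 2 MK6 arrays leaves 1, which is then assumed to vary like the arrays of the other stages, so calls gained that way are no support. In MK6 against MK4, where 0 were called, 3 were called without MK6 replicates 2 and 3 together, and leaving out 1 array gave 0 to 1. In MK4 against MKP 1 was called instead of 0 in a fit to those stages alone. The 1 call in MK6 against MK3 went to 0 with a smaller pseudocount, no filter, a filter passed on all 9 arrays, quantile normalization, a common median, 1 probe set a gene, no intensity trend, the beta-actin covariate, the 2 stages alone, or without MK6 replicates 1 and 3 together. It went to 4 without MK6 replicates 2 and 3 together, and from 0 to 5 with 1 array left out. The 1 call for any difference among the stages went to 0 under the same alternatives (a fit to 2 stages does not apply), to 3 without MK6 replicates 2 and 3 together, and from 0 to 1 with 1 array left out. The log2 ratio of Tubb2a to Tubb5 (2.74) ran from 2.428 to 3.063 that of Tubb6 to Tubb5 (0.93) from 0.7512 to 1.109, and that of Tuba4a to Tuba1a (0.70) from 0.4183 to 0.9863 with 1 array left out. Leaving out an MKP, MK3 or MK4 array leaves a single array in that stage, without spread of its own, so p-values of these ratios are not read there. Scaling to a common median moved the median MK6 minus MKP difference of all probe sets to -0.04, against 0.08. No paired analysis was possible because only the MK6 titles carry replicate numbers. Signals near the pseudocount, as for Tuba4a 1417375_at and Tubb2b in MKP, limit the size of a difference.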
